A study of Mus musculus with 18 samples.

Results

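The core naive transcription factor network was followed through exit from naive pluripotency as 10 genes, Nanog, Esrrb, Tfcp2l1, Tbx3, Prdm14, Nr5a2, Nr0b1, Tcl1, Gbx2 and Sall4, of the 53801 genes counted. The genes were taken by name, with earlier results of these data known. RNA-seq was done on mouse embryonic stem cells (ESCs) of the wild-type (WT) line E14TG2a and of iEZR_CA, an E14 line in which a PiggyBac transgene switched on by doxycycline gives a phosphomimetic, constitutively active ezrin together with mCherry. Ezrin is a linker of the plasma membrane to the actin cortex. Each line was sampled in 2i+LIF (ESC, 0 h), which is N2B27 medium with the MEK inhibitor PD0325901, the GSK3 inhibitor CHIR and leukemia inhibitory factor, and again when these had been withdrawn for 24 h (T24) or 48 h (T48). Each of the 6 groups had 3 libraries, which the study calls biological replicates. The labels name libraries by plate well only. Doxycycline was given to iEZR_CA cells overnight before exit and is not mentioned for WT cells, so that drug, transgene and the history of the line cannot be told apart in any comparison of the lines.

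Naive pluripotency is the state of the epiblast before implantation, held in ESCs by transcription factors that activate each other's genes. LIF acts on the network through STAT3, and inhibition of GSK3 acts through β-catenin, which relieves repression by Tcf7l1. Inhibition of MEK blocks the FGF/ERK signal that drives exit. When these inputs are withdrawn the network is taken apart over the following days, and the cells go on to a formative state in which Nanog, Esrrb, Tfcp2l1 and the others are low while the general factors Pou5f1 and Sox2 are still made.

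The libraries held between 10940752 and 33276622 reads on genes (median 23096248). Replicates differed by more than sampling noise in all 18 pairs, with a chi-square per degree of freedom of 1.61 to 3.59. Ezr, whose counts do not separate transgene from endogenous gene, had 24819 ± 499 normalized counts in iEZR_CA ESCs and 11763 ± 277 in WT ESCs (SD, n = 3). At T24 it had 20793 ± 564 in iEZR_CA and 7711 ± 175 in WT cells, and at T48 16215 ± 165 and 10096 ± 413. The summed ES cell markers Pou5f1, Sox2, Utf1 and Dppa5a lay between 30889 and 62319 normalized counts in all libraries. Reads of low alignment quality took 0.889% to 1.02% of the iEZR_CA libraries and 0.519% to 0.612% of the WT libraries, and the part of this in the results was not tested.

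All 10 genes passed the filter on low counts and were tested in every comparison, with edgeR's quasi-likelihood test over 18469 genes and Benjamini-Hochberg adjustment. A gene is called where its adjusted p is under 0.05. Because the common coefficient of variation between replicates was 2.98%, small differences were called, and a large share of all genes was called in each comparison. Normalized counts are counts divided by DESeq2 size factors. As these are bulk samples, fewer cells of a type and less RNA per cell cannot be told apart.

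In WT ESCs Nanog had the highest level per length of the 10 genes, with a mean of 10594 normalized counts per kb of exon. Esrrb followed with 3500.4 normalized counts per kb and Tfcp2l1 with 2651. Sall4 with 1699.6, Nr0b1 with 1569 and Tbx3 with 1169.9 were the next on the same scale. Tcl1 (958), Prdm14 (720.4) and Nr5a2 (647) were lower, and Gbx2 was lowest with 186 normalized counts per kb. The genes most often placed at the centre of the network were thus at the top of this order. The 10 genes together took 0.460% to 0.471% of the reads on genes in WT ESCs and 0.419% to 0.429% in iEZR_CA ESCs. At T24 this share was 0.131% to 0.132% in WT cells and 0.218% to 0.224% in iEZR_CA cells. At T48 it was 0.0466% to 0.0503% and 0.0615% to 0.0630%. The share was higher in WT cells before exit and higher in iEZR_CA cells at both later times, without overlap. At T48 Sall4 had the highest mean of the 10 genes, with 6710 normalized counts in WT and 6195 in iEZR_CA cells. Next were Gbx2 (2075) in WT and Esrrb (2596) in iEZR_CA cells, while Nanog had 411 and 1106. The share at T48 thus follows Sall4 more than any other of the 10 genes.

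The genes followed 3 courses. Nanog, Esrrb, Tfcp2l1, Tbx3, Prdm14, Nr5a2 and Tcl1 fell in both lines over both intervals. Nr0b1 rose to T24 in both lines and then fell. Gbx2 rose in WT cells, and Sall4 stayed within 71.3% to 117% of its ESC level in both lines. This grouping was made after the values were seen and serves as a description.

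**Figure D1:**
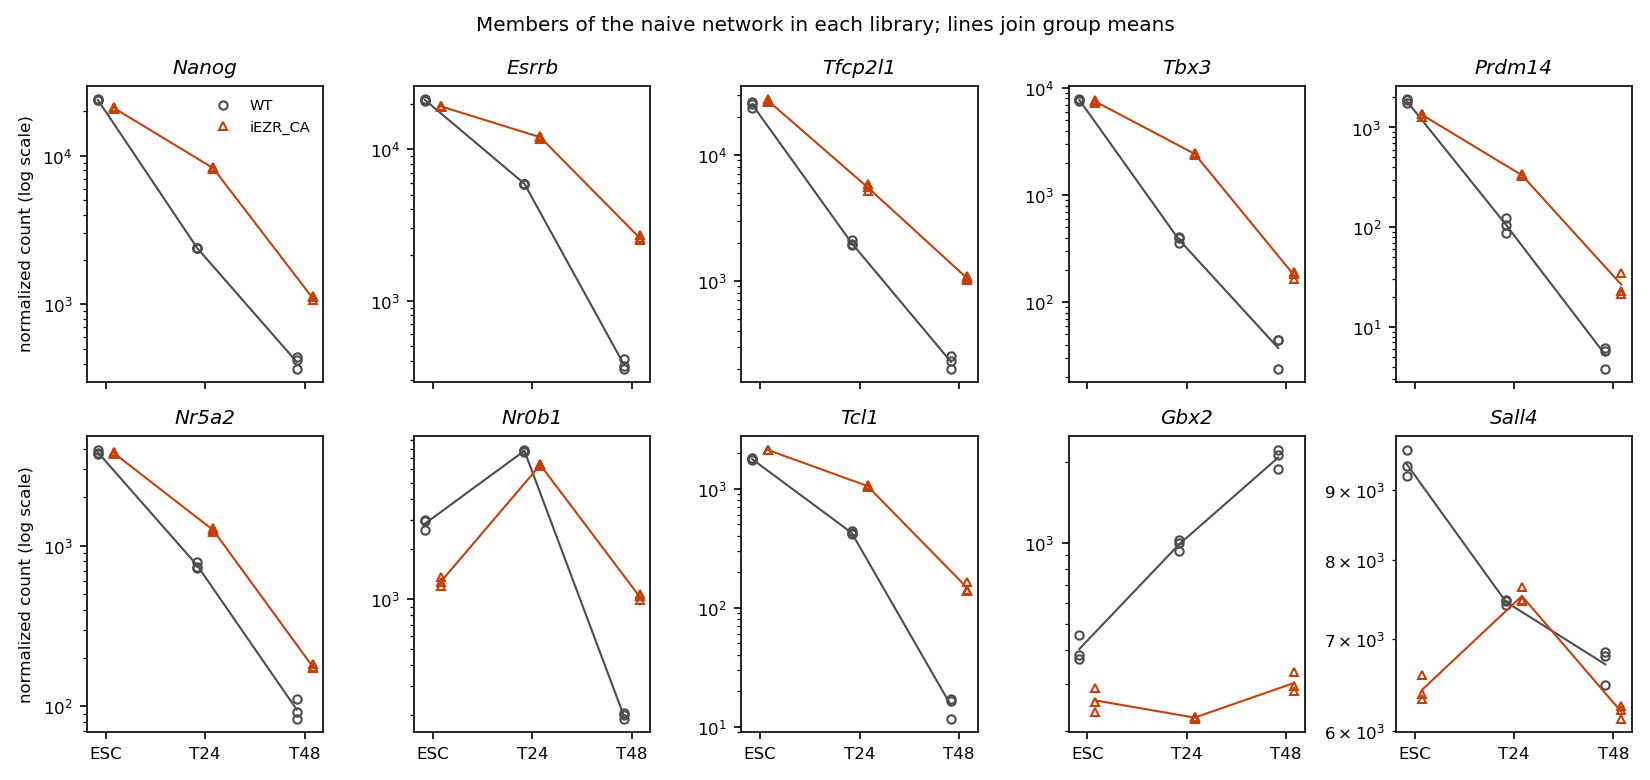
Normalized counts on a log scale (y) in ESCs and at T24 and T48 (x) for the 10 genes, with 1 symbol per library (circles WT, triangles iEZR_CA) and lines through the group means; the y axis differs between panels. The 7 falling genes lie higher in iEZR_CA than in WT at T24 and T48, Nr0b1 peaks at T24 in both lines, and Gbx2 rises from 404 to 2075 normalized counts in WT while it stays between 225 and 302 in iEZR_CA.

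RefSeq promoter windows (GRCm38.p6, 250 bases before to 50 after a start) were at hand for 7 of the 10 genes, with 10 windows, and not used here for Tbx3, Prdm14 and Sall4. The part before the start is given below for Nanog, Nr0b1 and Gbx2, as an example of each of the 3 courses. It is written 5′ to 3′ on the strand of the gene, at chr6:122707239-122707488 (plus strand), chrX:86191525-86191763 (plus strand) and chr1:89931180-89931426 (minus strand). Capitals mark matches, on either strand, to the POU core ATGCAAA, the SOX element CATTGT, the nuclear receptor half-site AGGTCA, the KLF box GGGCGTG, the TCF/LEF element ATCAAAG or the TATA box TATAAA.
Nanog: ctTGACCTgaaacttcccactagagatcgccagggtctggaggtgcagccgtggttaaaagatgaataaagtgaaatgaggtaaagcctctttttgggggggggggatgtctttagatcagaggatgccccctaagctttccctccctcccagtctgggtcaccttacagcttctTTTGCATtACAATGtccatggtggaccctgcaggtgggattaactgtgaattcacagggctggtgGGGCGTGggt
Nr0b1: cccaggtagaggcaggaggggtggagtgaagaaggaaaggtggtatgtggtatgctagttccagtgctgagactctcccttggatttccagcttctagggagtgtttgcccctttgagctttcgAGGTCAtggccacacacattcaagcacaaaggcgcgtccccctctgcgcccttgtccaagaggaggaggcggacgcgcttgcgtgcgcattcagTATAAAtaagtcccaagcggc
Gbx2: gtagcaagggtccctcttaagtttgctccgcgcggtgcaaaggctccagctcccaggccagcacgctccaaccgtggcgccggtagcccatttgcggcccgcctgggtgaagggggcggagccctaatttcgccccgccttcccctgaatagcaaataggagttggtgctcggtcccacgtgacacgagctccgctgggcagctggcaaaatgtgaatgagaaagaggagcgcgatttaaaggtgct

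The Nanog promoter held a POU core and a SOX element, both on the minus strand and 1 base apart, from -75 to -62 relative to the start. Pou5f1 and Sox2 are known to bind such a pair in ESCs. Of 32851 promoter windows of 27025 genes, 2 held this arrangement (0.00609%), and both were windows of Nanog. These 2 windows belong to starts 76 bases apart, overlap, and hold the same site. Only the exact letters were sought, so that pairs with other letters were not counted. A POU core alone was in 4.63% of windows and a SOX element in 12.6%. The nuclear receptor half-site, which Esrrb, Nr5a2 and their relatives read, was in windows of Nanog, Nr5a2 and Nr0b1 and in 16.3% of all windows. The KLF box was in windows of Nanog, Tfcp2l1 and Nr5a2 (8.44% of all windows) and the TATA box in those of Tfcp2l1, Nr5a2 and Nr0b1 (13.6%). The TCF/LEF element was in none of the 7 genes' windows (3.73% of all), and the Gbx2 window held none of these letters. A match describes the sequence and does not show that a factor was bound, and no match says only that these letters are not in this window.

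The difference already present in ESCs was looked at first. In 2i+LIF, 6 of the 10 genes were lower in iEZR_CA than in WT cells (28.1% of all genes tested were) and 1 was higher (26.4% of all genes). The median log2 fold change of the 10 genes was -0.17 and that of all genes -0.01. Nr0b1 (Dax1), an orphan nuclear receptor without the usual DNA-binding domain, differed most. It had 2601, 2924 and 2987 normalized counts in the WT libraries and 1256, 1197 and 1361 in the iEZR_CA libraries. The lines did not overlap, with a log2 fold change of -1.18 (SE 0.042, edgeR adjusted p = 6.96e-26), and Nr0b1 was the only member over 2-fold apart in ESCs.

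Gbx2, a homeobox factor downstream of LIF and STAT3, had 456, 372 and 385 normalized counts in WT ESCs and 290.1, 235 and 256 in iEZR_CA ESCs. Every iEZR_CA library was lower than every WT library (log2 fold change -0.64, SE 0.089, edgeR adjusted p = 1.65e-07). Sall4, a zinc finger factor needed beyond the naive state, had 9371, 9636 and 9219.6 in WT ESCs and 6380.5, 6325 and 6593 in iEZR_CA ESCs. It was lower in iEZR_CA without overlap, by a log2 fold change of -0.56 (SE 0.026, edgeR adjusted p = 1.12e-28).

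Prdm14, which represses FGF receptor signalling and the de novo DNA methyltransferases in naive cells, had 1908, 1887 and 1746 normalized counts in WT ESCs and 1260.2, 1369 and 1362 in iEZR_CA ESCs. The iEZR_CA libraries were again all lower (log2 fold change -0.48, SE 0.047, edgeR adjusted p = 6.42e-14). Nanog and Esrrb, the members with the highest level per length, were lower by less. Their log2 fold changes were -0.19 (SE 0.026) and -0.15 (SE 0.026), and with scaling to the spike-in RNA, -0.13 and -0.09, neither was called. Tcl1, a coactivator of the kinase AKT and not itself a DNA-binding factor, was the only member higher in iEZR_CA ESCs. It had 1757, 1807 and 1736 normalized counts in WT libraries and 2097, 2117 and 2108 in iEZR_CA libraries, a log2 fold change of 0.25 (SE 0.039, edgeR adjusted p = 1.67e-07). With scaling to spike-in RNA it was not called (0.30, adjusted p = 0.0607).

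Tfcp2l1, Tbx3 and Nr5a2 were not called in ESCs. Tfcp2l1 had a log2 fold change of 0.09 with a 95% interval from -0.02 to 0.20, Tbx3 of -0.06 (-0.12 to 0.01) and Nr5a2 of -0.02 (-0.09 to 0.05). Differences of the size seen for Nr0b1 are outside all of these intervals. Tfcp2l1 was called higher when only the 2 ESC groups were fitted (0.10) and when the second WT ESC library was left out (0.13, adjusted p = 0.0309).

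Since stretches of the genome can differ between cell lines, each member's ESC difference was set beside its neighbours. Around Gbx2 on chromosome 1 (89927956 to 89931179, minus strand), 24 other tested genes with a mean of at least 50 normalized counts lay within 2.5 Mb on either side. Their median log2 fold change was -0.03, and 0 of them were lower than Gbx2. Around Prdm14, also on chromosome 1 (13113457 to 13127163), the 11 neighbours had a median of 0.24, and 3 were lower than Prdm14. Around Sall4 on chromosome 2 (168748332 to 168767943), the 31 neighbours had a median of -0.11, with 4 lower than Sall4. Nr0b1 on the X chromosome (86191764 to 86195947) had only 3 such neighbours, with a median of 0.09, and the median over 497 such genes of the X chromosome was 0.02. Markers of primitive endoderm (6 genes, Gata4, Gata6, Sox17, Pdgfra, Dab2 and Foxa2) summed to 745 to 806 normalized counts in iEZR_CA ESCs and 228 to 252 in WT ESCs, and those of trophoblast (5 genes) to 190.0 to 221 and 65.8 to 76.6, with Hand1 at or under 3 reads in every library of both groups and Elf5 in those of WT only. The germ cell markers Prdm1, Tfap2c and Nanos3 summed to 2028 to 2123 in iEZR_CA ESCs and 3107 to 3201 in WT ESCs. The part of these cells or genes in the ESC differences was not tested.

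**Figure D2:**
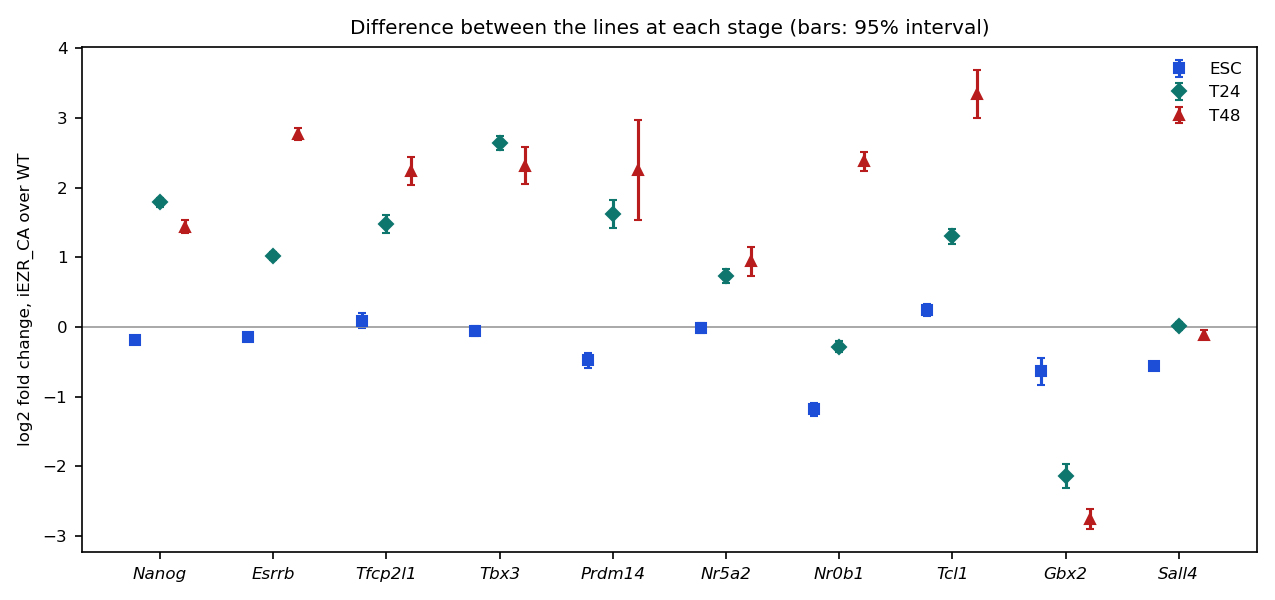
Log2 fold change of iEZR_CA over WT (y) for each gene (x) in ESCs (squares), at T24 (diamonds) and at T48 (triangles), with bars for the 95% interval. ESC differences lie between -1.18 and 0.25, the 7 falling genes are higher in iEZR_CA at T24 and T48, Nr0b1 crosses from -1.18 to 2.38, and Gbx2 goes down to -2.76.

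Exit in WT cells was followed next. From ESC to T24, 8 of the 10 genes fell (33.6% of all genes did) and 2 rose (31.8% of all). The median log2 change of the 10 was -2.20 and that of all genes -0.01. In iEZR_CA cells 7 genes fell (28.9% of all genes) and 2 rose (27.1%), with a median of -1.18. From ESC to T48, 9 genes fell and 1 rose in WT cells (37.4% and 37.1% of all genes), with a median of -5.84. In iEZR_CA cells 8 fell and 1 rose (35.0% and 35.2%), with a median of -4.04. Among these, Nr0b1 in iEZR_CA cells was not called with scaling to spike-in RNA (-0.04, adjusted p = 0.787).

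Tbx3, a T-box factor that responds to LIF and PI3K signals, had the largest log2 fall from ESC to T24 in WT cells, in a range that overlapped with that of Prdm14. Over 48 h Prdm14 had the larger log2 change (-8.35, against -7.78 for Tbx3). Tbx3 had 7603, 7808 and 7837 normalized counts in WT ESCs, 406, 394 and 358 at T24 and 24.0, 44.0 and 44.2 at T48. The 3 times did not overlap, and the first T48 library was the lowest by far. At T24 4.98% ± 0.322 of the ESC level was left (SD, n = 3), a log2 change of -4.32 (SE 0.044, edgeR adjusted p = 4.49e-61). Here and below, the SD of a percent of the ESC level is that of the later libraries over the mean of the ESC libraries. It leaves out the spread between ESC libraries. In iEZR_CA cells Tbx3 had 7720.4, 7241 and 7552 in ESCs, 2393, 2489.5 and 2407 at T24 and 182, 165 and 189 at T48. At T24 32.4% ± 0.696 was left. On the log2 scale the changes of the 2 lines over the first 24 h were further apart for Tbx3 than for the other 9 genes.

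Prdm14 was next in WT cells, with 105, 124 and 88.3 normalized counts at T24 and 6.18, 3.82 and 5.73 at T48. Its T48 libraries held 2 to 8 reads, close to the floor of 3 reads, so that the 0.284% left at T48 is known only roughly. In iEZR_CA cells Prdm14 had 344, 323 and 331 at T24 and 35.1, 23.1 and 21.6 at T48. Of the ESC level of its own line, 5.73% ± 0.972 was left at T24 in WT cells and 25.0% ± 0.799 in the iEZR_CA line, without overlap.

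Tfcp2l1, a CP2-family factor that carries much of the LIF and STAT3 signal in ESCs, had 25102, 26303 and 23660.4 normalized counts in WT ESCs, 1949, 1918 and 2109 at T24 and 229.5, 250.5 and 201 at T48. In iEZR_CA cells it had 26010.2, 26899 and 27431, then 5495, 5881 and 5187, then 1047, 1016 and 1086. The lines overlapped in ESCs, and from T24 on all iEZR_CA libraries were higher. At T24 7.96% ± 0.410 was left in WT cells and 20.6% ± 1.30 in iEZR_CA cells, where Tfcp2l1 and not Tbx3 had fallen furthest.

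Nanog, the homeodomain factor at the centre of the network, had 23568, 23900.0 and 23788 normalized counts in WT ESCs. It had 2393, 2392 and 2393 at T24 and 441, 423 and 369.9 at T48. The T24 libraries lay closer together than reads counted at random would usually leave them (the shallowest had 1518 reads on Nanog), so that this spread says little about the error. In iEZR_CA cells Nanog had 21136, 21067 and 20710.0 in ESCs, 8095, 8345 and 8323 at T24 and 1069, 1119 and 1131 at T48. At T24 10.1% was left in WT cells and 39.4% ± 0.660 in iEZR_CA cells. The log2 difference of the lines at T24 was 1.79 (SE 0.030, edgeR adjusted p = 1.10e-54), and at T48 it was smaller, 1.44 (SE 0.043).

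Nr5a2, an orphan nuclear receptor that can stand in for Pou5f1 in reprogramming, had the most similar course in both lines among the 7 falling genes. In WT cells it had 3954, 3789.8 and 3698 normalized counts in ESCs, 741, 789 and 731 at T24 and 92.7, 111 and 83.5 at T48. The iEZR_CA libraries had 3767, 3824 and 3739, then 1223, 1282 and 1252, then 176, 173 and 183. The lines overlapped in ESCs and were apart at both later times, by log2 fold changes of 0.74 (SE 0.044) and 0.94 (SE 0.095). At T24 19.8% ± 0.817 was left in WT cells and 33.2% ± 0.770 in iEZR_CA cells.

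Tcl1 was at 439.9, 412 and 424 normalized counts in WT cells at T24 and at 11.6, 17.2 and 16.4 at T48. In iEZR_CA cells it was at 1052, 1073 and 1025 and then at 164, 137 and 141. Its lines were furthest apart at T48, by a log2 fold change of 3.34 (SE 0.158, edgeR adjusted p = 4.96e-29), the largest of the 10 genes at any stage. Esrrb, an orphan nuclear receptor freed from Tcf7l1 when GSK3 is inhibited, was the slowest of the 7 in both lines over the first 24 h. It had 21254, 21333 and 20914 in WT ESCs, 5937, 5914 and 5908 at T24 and 355, 369 and 413 at T48. In iEZR_CA cells it had 19336, 18926 and 19391, then 12034, 12316 and 11656, then 2511, 2584 and 2693. Of its ESC level 28.0% ± 0.0713 was left at T24 in WT cells and 62.5% ± 1.72 in iEZR_CA cells. The WT libraries of Esrrb at T24 again lay closer together than reads counted at random would usually leave them (as few as 3748 reads on Esrrb). Their spread thus says little about the error.

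**Figure D3:**
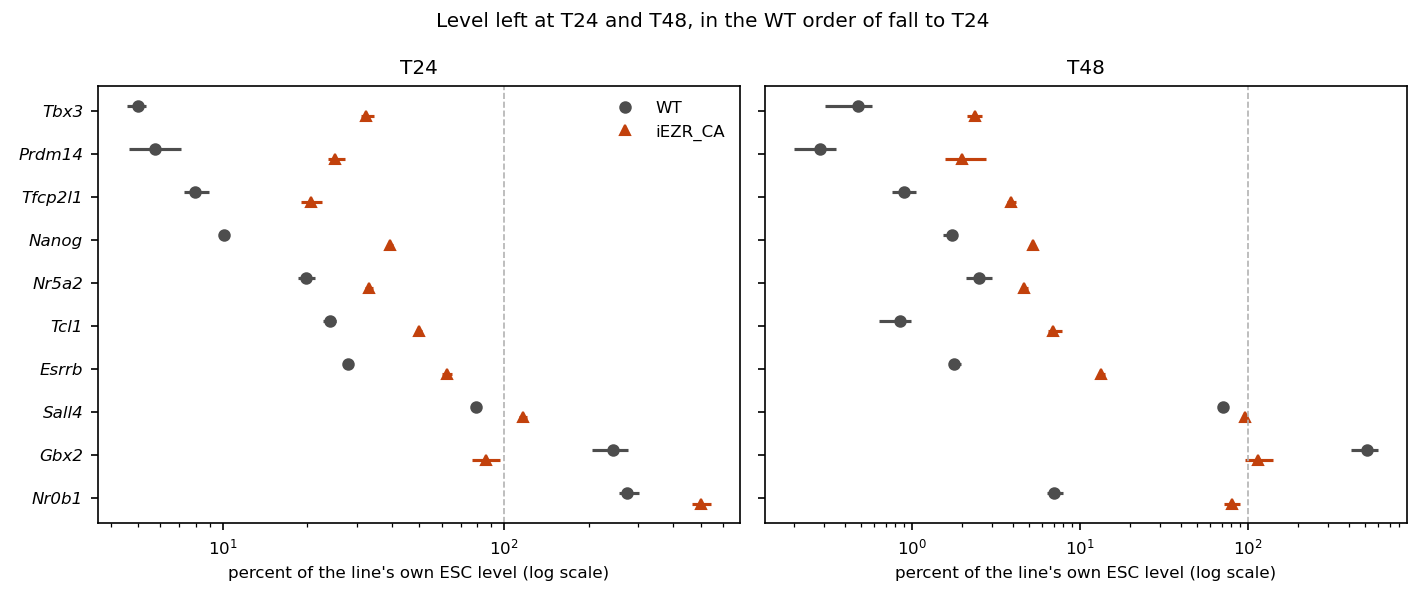
Percent of the line's own mean ESC level (x, log scale) left at T24 (left) and T48 (right) for each gene (y, in the WT order of fall to T24), for WT (circles) and iEZR_CA (triangles). Horizontal lines span the 9 pairings of an ESC with a later library. In WT the 7 falling genes kept 4.98% to 28.0% at T24, in iEZR_CA 20.6% to 62.5%.

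The order of fall to T24 in WT cells was Tbx3, Prdm14, Tfcp2l1, Nanog, Nr5a2, Tcl1 and Esrrb, followed by Sall4. Neighbours in an order are called apart here where their log2 changes do not overlap over the 9 pairings of libraries. Tbx3 and Prdm14 overlapped, and all later neighbours down to Sall4 were apart. In iEZR_CA cells the order was Tfcp2l1, Prdm14, Tbx3, Nr5a2, Nanog, Tcl1 and Esrrb, and only Tbx3 and Nr5a2 overlapped among these 7. The first 3 genes and the last pair, Tcl1 and Esrrb, were the same in both lines, while Tbx3 led in WT cells and came after Tfcp2l1 and Prdm14 in iEZR_CA. Over the 7 genes, Spearman's rho between the orders of the lines was 0.821 for the first 24 h and 0.071 for the second (n = 7 genes, which share their libraries). Over all 10 genes it was 0.927 and 0.442.

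As a rate, the fall over the first 24 h corresponds to an apparent halving time of the transcript level, taken as constant over the interval. It was 5.56 h for Tbx3, 5.84 h for Prdm14, 6.54 h for Tfcp2l1 and 7.22 h for Nanog in WT cells, and 12.97 h for Esrrb. In iEZR_CA cells it was 14.7 h for Tbx3, 11.9 h for Prdm14, 10.5 h for Tfcp2l1, 17.8 h for Nanog and 35.2 h for Esrrb. Over the second 24 h the halving times in iEZR_CA cells were shorter for each of the 7, with 6.35 h for Tbx3, 10.01 h for Tfcp2l1, 8.28 h for Nanog and 10.9 h for Esrrb. In WT cells they were also shorter for Esrrb (6.06 h), Prdm14 (5.66 h), Nr5a2 (7.92 h, from 10.2 h) and Tcl1 (4.93 h, from 11.6 h). They were longer in WT cells for Tbx3 (6.94 h), Tfcp2l1 (7.59 h) and Nanog (9.42 h).

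The second interval differed from the first. From T24 to T48, 9 genes fell and 1 rose in each line (32.9% and 32.8% of all genes in WT, 30.0% and 29.6% in iEZR_CA). Of the log2 fall over 48 h, Nanog had made 56.6% by T24 in WT cells and 31.7% in iEZR_CA cells. Tbx3 had made 55.6% and 30.1%, and Prdm14 49.2% and 35.8%. Tfcp2l1 (53.7% and 48.7%), Nr5a2 (43.6% and 36.1%), Esrrb (31.8% and 23.6%) and Tcl1 (29.7% and 26.3%) were closer between the lines. In WT cells Tcl1 and Esrrb had made the smallest share of their fall by T24, and in iEZR_CA cells all 7 made the larger part of it after T24. The fold between the most and the least retained of the 7 was 5.62 in WT and 3.03 in iEZR_CA at T24.

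Whether the lines differed in their fall was tested by the interaction of line and time. Over the first 24 h the change was more positive in iEZR_CA cells for 9 genes (21.5% of all genes) and more negative for 1, Gbx2 (16.9% of all). The interaction was largest for Tbx3 at 2.69 (SE 0.058), Prdm14 at 2.10 (SE 0.104) and Nanog at 1.98 (SE 0.039). It was smallest among the 7 falling genes for Nr5a2 at 0.75 (SE 0.056, edgeR adjusted p = 1.17e-18). Over 48 h it was again positive for 9 and negative for Gbx2 (25.7% and 20.0% of all genes), of which Sall4 was not called with scaling to spike-in RNA (adjusted p = 0.0551).

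Between T24 and T48 the lines differed further for some genes only. The log2 change of Esrrb was -3.96 in WT cells and -2.21 in the iEZR_CA line, and that of Tcl1 was -4.87 and -2.83. The interaction was positive for 4 genes, Esrrb, Tfcp2l1, Nr0b1 and Tcl1 (25.3% of all genes), and negative for 3, Nanog, Gbx2 and Sall4 (20.9%). Nanog fell by 2.55 in WT cells and by 2.90 in iEZR_CA cells over this interval, an interaction of -0.35 (SE 0.053, edgeR adjusted p = 6.30e-08), which was not called with scaling to spike-in RNA (adjusted p = 0.152). For Tbx3, Prdm14 and Nr5a2 it was not called, with 95% intervals from -0.66 to 0.02, from -0.17 to 1.43 and from -0.03 to 0.44. Without the low first T48 library of WT cells the interaction of Tbx3 was -0.64 and called (adjusted p = 0.00255). The lines thus kept moving apart after T24 for Esrrb, Tfcp2l1 and Tcl1, and for Gbx2 in the other direction (log2 fold change -2.14, then -2.76). Nr0b1 turned from lower to higher in iEZR_CA cells (-0.28, then 2.38). For Nanog the lines came closer, a change not called with scaling to spike-in RNA.

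At T24, 7 genes were higher in iEZR_CA than in WT cells (30.8% of all genes), 6 of them by over 2-fold (7.88% of all), and 2, Nr0b1 and Gbx2, were lower (30.1%). At T48, 8 were higher (31.0%), 7 of them by over 2-fold (7.83%), and 2, Gbx2 and Sall4, were lower (30.1%). The median log2 fold change of the 10 genes was 1.16 at T24 and 2.25 at T48, against 0.00 for all genes at both times.

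To put the difference in fall on a time scale, each of the 7 falling genes was placed on the WT course, as the time at which WT cells, relative to WT ESCs, had reached the log2 change that iEZR_CA cells had made relative to their own ESCs. Straight lines were drawn on the log2 scale between ESC, T24 and T48. At T24 the iEZR_CA cells stood at 8.87 ± 0.521 h for Esrrb, 9.02 ± 0.171 h for Tbx3 and 9.75 ± 0.176 h for Nanog. Prdm14 (11.6 ± 0.267 h) and Tcl1 (11.7 ± 0.389 h) were in the middle, and Tfcp2l1 (15.0 ± 0.596 h) and Nr5a2 (16.3 ± 0.344 h) were furthest along (SD, n = 3). The median over the 7 genes was 11.6 ± 0.170 h. At T48 6 of the 7 stood between 30.4 h (Esrrb) and 32.9 h (Tcl1), and Nr5a2 at 40.7 ± 0.350 h, with a median of 32.5 ± 0.428 h.

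The genes were spread over 8.87 h to 16.3 h at T24, and 6 of them lay within a narrower range at T48. In hours behind the clock, Tfcp2l1 went from 9.01 h at T24 to 16.2 h at T48, Nanog from 14.2 h to 15.2 h, Tbx3 from 15.0 h to 16.5 h, and Nr5a2 from 7.66 h to 7.34 h. These times rest on 3 time points and on the shape drawn between them. With straight lines on the linear scale the median was 17.1 h at T24 and 37.8 h at T48.

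**Figure D4:**
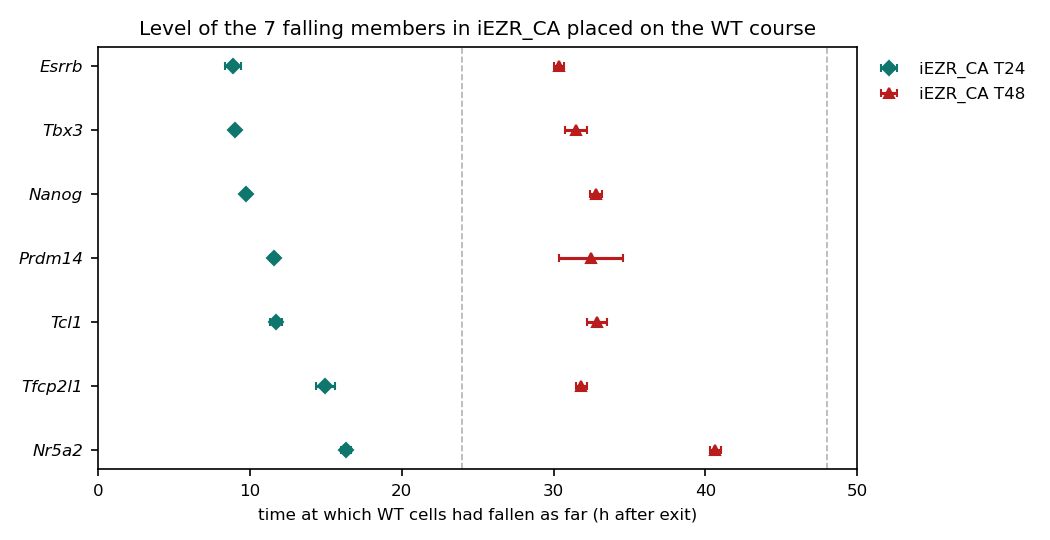
Time after exit (x, h) at which WT cells had fallen as far as iEZR_CA cells at T24 (diamonds) and T48 (triangles), for the 7 falling genes (y); bars are the SD of 3 iEZR_CA libraries and dashed lines mark 24 h and 48 h. All points lie left of the dashed line of their own time, from 8.87 h to 16.3 h at T24 and from 30.4 h to 40.7 h at T48.

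The iEZR_CA cells at T48 were also set beside the WT cells of the day before. All 10 genes were lower in iEZR_CA cells at T48 than in WT cells at T24 (29.4% of all genes were lower and 29.7% higher), and 0 were higher. The median log2 fold change was -1.36. The 10 included Gbx2, which rose in WT cells, and Nr0b1, which peaked at T24, so that lower does not mean the same for all. Nearest to the earlier WT level was Sall4 at -0.26 (SE 0.027), and of the falling genes Tfcp2l1 at -0.92 (SE 0.065) and Nanog at -1.11 (SE 0.034). With scaling to spike-in RNA Sall4 was not called. The fold change was negative for all 10 genes in edgeR with each scaling and filter tried and in DESeq2.

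Nr0b1, unlike the 7 falling genes, rose in both lines over the first interval. It rose from 2601, 2924 and 2987 normalized counts in WT ESCs to 7642, 7872 and 7782 at T24, and dropped to 190.1, 201 and 206 at T48. In iEZR_CA cells it rose from 1256, 1197 and 1361 to 6319.6, 6359 and 6487 and dropped to 980.3, 1036 and 1076. At T24 it stood at 274% ± 4.09 of its ESC level in WT and at 503% ± 6.88 in iEZR_CA cells, and at T48 at 7.02% ± 0.289 and 81.1% ± 3.76. Its order between the lines turned round. iEZR_CA cells were lower in ESCs, still lower at T24 by a log2 fold change of -0.28 (SE 0.035, edgeR adjusted p = 3.07e-09, though not called with scaling to spike-in RNA), and higher at T48 by 2.38 (SE 0.064, edgeR adjusted p = 2.04e-30). The interaction over 48 h, 3.55 (SE 0.077), was the largest of the 10 genes.

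Gbx2 rose in WT cells at both steps, from 456, 372 and 385 normalized counts to 1003, 1022 and 933 at T24 and 1882, 2126 and 2217 at T48. The iEZR_CA libraries had 290.1, 235 and 256, then 227, 226 and 222, then 294, 332 and 282. The WT times did not overlap, while the iEZR_CA times lay within a narrow range and ESC and T48 overlapped. In WT cells it reached 513% ± 42.9 of its ESC level at T48 and in iEZR_CA cells 116% ± 9.99. The latter change, a log2 of 0.23 (edgeR adjusted p = 0.0261), was not called when either of 2 ESC libraries or 1 T48 library of iEZR_CA was left out. The lines differed at T48 by a log2 fold change of -2.76 (SE 0.067, edgeR adjusted p = 2.15e-28). Gbx2 overlaps the opposite-strand transcript D130058E05Rik, which had 2399 reads over all libraries against 13206 for Gbx2. The strand setting of the counting is not given in the sources used here, so that some of these reads cannot be told apart.

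Sall4 changed least. It had 7476, 7473 and 7419.6 normalized counts in WT cells at T24 and 6479, 6805 and 6847 at T48, and 7482, 7645 and 7464 and then 6256, 6208 and 6120.1 in iEZR_CA cells. At T24 the lines overlapped, with a log2 fold change of 0.02 and a 95% interval from -0.04 to 0.07. The iEZR_CA cells, lower in ESCs, rose by a log2 of 0.23 (SE 0.027) to T24 while WT cells fell by 0.35 (SE 0.026), which with scaling to spike-in RNA was not called for WT. At T48 Sall4 was lower in iEZR_CA by 0.11 on the log2 scale (-0.11, SE 0.027), which was not called without the filter on low counts or with scaling to spike-in RNA. Over 48 h its log2 change was -0.50 in WT cells (not called with scaling to spike-in RNA, adjusted p = 0.0747) and -0.05 in iEZR_CA cells, which was not called. Gbx2 in WT cells, and Nr0b1 in both lines until T24, rose and thus went against their label as naive factors lost at exit.

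The mean of the standardised log2 levels of the 10 genes over the 6 group means, in which each member is itself included, had a correlation of 0.981 with Nr5a2, 0.980 with Prdm14 and 0.966 with Nanog. It had 0.701 with Nr0b1, 0.662 with Sall4 and -0.584 with Gbx2. There were 12801 genes with a mean of at least 50 normalized counts, the members included. Outside the members, the closest of these were Sema4b (0.998), Itpk1 (0.998) and Fbrs, Zfp526 and Chd2 (0.997 each), over 6 group means. They moved over a smaller range, Sema4b from 12.1 in WT ESCs to 9.93 at T48 in log2 of normalized counts.

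Genes around the network were counted from lists, beside the shares of all genes given above for each comparison and a median of all genes of 0.00 at T24 and T48. Of 12 other naive genes, 10 fell and 2 rose from ESC to T24 in WT cells, and 8 fell and 2 rose in iEZR_CA cells. At T24 8 of the 12 were higher in iEZR_CA and 3 lower, and at T48 10 were higher and 1 lower, with a median log2 fold change of 1.21. Klf4, a Krüppel-like factor downstream of STAT3, had 483 ± 10.5 normalized counts in WT and 1533 ± 84.6 in iEZR_CA cells at T24 (log2 fold change 1.66, SE 0.047). Spic had a mean of 3.42 normalized counts, near the floor of counting, and 17.0 ± 1.56 there, and Lifr, the LIF receptor, 2325 ± 154 and 2465 ± 166 (0.09, SE 0.040). Klf4 was, like Prdm14 and Nr0b1, lower in the ESCs of iEZR_CA (log2 fold change -0.49, SE 0.032).

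Of 5 general pluripotency genes, all were lower in iEZR_CA ESCs and 4 lower at T24, with medians of -0.29 and -0.48, and at T48 3 were higher and 1 lower. Sox2 went from 11512 ± 280 to 2578 ± 65.9 normalized counts over 48 h in WT cells and from 9264 ± 257 to 4239 ± 175 in iEZR_CA cells. Utf1 rose in both lines, to 14869 ± 389 and 10655 ± 210.4 at T24, and Zfp281 to 5181 ± 114 and 3674 ± 67.3. Of 8 formative and early post-implantation genes, all rose by T24 in both lines. All 8 were lower in iEZR_CA at T24 (median log2 fold change -1.61). Already before exit, 5 of these genes were lower in iEZR_CA and 2 were higher (median -0.89). By the interaction of line and time, the rise to T24 was smaller in iEZR_CA for 5 of the 8 and larger for 0. Lef1, a partner of β-catenin, had 1928 ± 26.0 normalized counts in WT and 188 ± 17.8 in iEZR_CA cells at T24. Fgf5 had 1049.6 ± 8.73 and 122 ± 11.1, and Sox3 834 ± 69.3 and 473 ± 27.4. At T48 6 of the 8 were lower in iEZR_CA and 1 was higher, with a median log2 fold change of -0.59. Lef1 then had 2312 ± 11.2 normalized counts in WT and 1469 ± 65.4 in iEZR_CA cells, and Sox3 2218 ± 136 and 1051 ± 7.08. Fgf5 was not called between the lines at T48 (log2 fold change 0.12, edgeR adjusted p = 0.0602).

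Of 7 genes of the signals that feed the network, 4 were higher in iEZR_CA ESCs and 0 lower, and 5 were higher and 0 lower at T24 and at T48. Stat3, which carries the LIF signal, fell in both lines, by a log2 of 2.01 to T24 in WT cells and by 1.42 in iEZR_CA cells, and was higher in iEZR_CA at T24 by 0.51 (SE 0.044). Gsk3b was higher in iEZR_CA at T24 by 0.64 (SE 0.051). Ctnnb1, the gene of β-catenin, was not called at T24 (log2 fold change -0.03, SE 0.024). Transcript levels do not show the activity of these signals.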

How the data were processed

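RNA-seq was measured in 18 libraries of polyadenylated RNA with paired-end reads. The authors used Trim Galore 0.6.5 for trimming, GSNAP for alignment to GRCm38 and HTSeq for counting on Ensembl genes. For its own tests the study used DESeq2, with an interaction term of time point and cell type, and showed normalized values. The deposited values are whole read counts per gene, neither pooled nor normalized. Reads outside genes (21.3% to 24.3% of a library, spike-in RNA of 0.575% to 0.884% included) were left out of library sizes. Reads with more than a single alignment are uncounted, which concerns stretches that Nanog shares with its pseudogenes. Whether counting used the strand is not given in the sources used here. Symbols, coordinates and exon lengths were taken from GENCODE M21 (GRCm38).

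Tests were run on these counts in edgeR 4.0.16, under R 4.3.3 (filterByExpr, TMM factors of 0.975 to 1.03, a term for each of the 6 groups over all 18 libraries, 12 residual degrees of freedom, robust quasi-likelihood test, Benjamini-Hochberg adjustment over 18469 genes, threshold 0.05, prior count 0.125). The standard error of a fold change follows from its size and its F statistic, and the 95% interval from the standard error. Levels are counts divided by DESeq2 1.42.0 size factors. P-values measure the spread between these libraries.

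Genes are named by a rule: the 10 members in every comparison, from each other list the 2 largest and the 1 smallest absolute fold changes between the lines at T24, and the 5 genes most like the members' mean pattern. The members and all lists were chosen with earlier results of these data known. Alternatives were DESeq2 size factors in edgeR, DESeq2's Wald test, no filter, scaling to spike-in RNA, a fit of only the groups compared, and leaving out each library. No paired analysis was possible because the labels give libraries no replicate number. Promoters came from RefSeq (GRCm38.p6).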

Additional observations from a re-analysis of the deposited data

Results flagged for a closer look

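The difference of the changes in the 2 lines, tested as the interaction of line and time with edgeR's quasi-likelihood test, passed the threshold for all 10 genes over the first 24 h and over 48 h, and for 7 of the 10 over the second 24 h. Of all genes, 21.5% had a positive and 16.9% a negative interaction over the first 24 h. These shares were 25.7% and 20.0% over 48 h, and 25.3% and 20.9% over the second 24 h. With scaling to spike-in RNA the interaction did not pass for Sall4 over 48 h (adjusted p = 0.0551) nor for Nanog (0.152) and Sall4 (0.661) over the second 24 h. A positive value means that the log2 change was more positive in iEZR_CA cells.

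Over the first 24 h, Tbx3 (2.69), Prdm14 (2.10), Nanog (1.98), Tfcp2l1 (1.39), Esrrb (1.17), Tcl1 (1.05) and Nr5a2 (0.75) fell by less in iEZR_CA cells. Nr0b1 (0.90) rose by more. Sall4 (0.57) rose in iEZR_CA and fell in WT cells, and Gbx2 (-1.50) rose in WT cells and was not called in iEZR_CA cells.

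Over 48 h the values were largest for Nr0b1 (3.55), Tcl1 (3.10) and Esrrb (2.92). They were 2.73 for Prdm14, 2.37 for Tbx3, 2.15 for Tfcp2l1, 1.62 for Nanog, 0.96 for Nr5a2, 0.45 for Sall4 and -2.12 for Gbx2.

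From T24 to T48 the fall was smaller in iEZR_CA cells for Nr0b1 (2.66), Tcl1 (2.04), Esrrb (1.75) and Tfcp2l1 (0.76), and the change was more negative in iEZR_CA cells for Gbx2 (-0.62), Nanog (-0.35) and Sall4 (-0.12).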

How the results depend on the processing

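Of 1610 values of single genes under the alternatives, 1585 kept their side of the threshold, 19 were no longer called and 6 became called. Among values called in the main fit or in the alternative, 0 turned round. Some values called in neither changed sign. With scaling to spike-in RNA, Tbx3 between the lines in ESCs went from -0.06 to 0.004. Sall4 at T48 against ESC in iEZR_CA went from -0.05 to 0.20. Scaling to spike-in RNA moved the median of all genes by up to 0.27 on the log2 scale (T48 against ESC in WT, and 0.26 in iEZR_CA), 0.13 and 0.14 over the first 24 h and 0.04 to 0.07 between the lines, and gave most of the lost calls. With it, ESCs of iEZR_CA had 0 genes higher and 4 lower than WT, 7 fell over the first 24 h in WT cells, 8 from T24 to T48 in each line, and 8 over 48 h in WT and 7 in iEZR_CA cells, 9 were lower in iEZR_CA at T48 than in WT at T24, 8 had a positive interaction over 48 h, 1 was lower at T24, 1 was lower at T48 and 1 had a negative interaction from T24 to T48. Without the filter on low counts, 1 gene was lower at T48. With only the groups compared, 2 genes were higher in iEZR_CA ESCs. With single libraries left out, genes higher in iEZR_CA ESCs numbered 1 to 2 (2 without the second WT ESC library, which adds Tfcp2l1), and genes higher at T48 than in ESC in iEZR_CA numbered 0 to 1 (0 without any of 3 libraries of iEZR_CA, ESC replicates 2 and 3 and T48 replicate 2, where Gbx2 was lost). The median position on the WT course at T24 was 10.7 h with spike-in scaling, 11.1 h on absolute counts, 17.1 h on the linear scale and 11.3 to 11.8 h with single libraries left out. At T48 it was 31.8 h on absolute counts, 37.8 h on the linear scale and 32.0 to 32.8 h with single libraries left out. The cause of these changes was not tested, and shares of all genes called were not taken under the alternatives. Relative to the size factors, spike-in scaling spread over 0.61 on the log2 scale across the 18 libraries. In the iEZR_CA T48 libraries spike-in RNA was 0.874%, 0.575% and 0.643% of reads. Some calls lost with it kept their size, as Tcl1 between the lines in ESCs (0.25, then 0.30). Others shrank, as Sall4 from ESC to T24 in WT cells (-0.35, then -0.21). The order of fall to T24 was the same at all 10 ranks in both lines under TMM scaling, spike-in scaling and each library left out.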
